A study of Mus musculus with 51 samples.

Results

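Sost, Dkk1, Sfrp1, Sfrp2, Sfrp4 and Wif1 encode secreted antagonists of Wnt signalling, and Cpz encodes a secreted carboxypeptidase with a Wnt-binding domain. These 7 genes were taken by name from 23358 gene entries of the femurs with and without VitC (vitamin C) and from 25938 entries of the femurs lacking Tet enzymes. They were chosen by function and selected on their RPKM in the first of these experiments, whose differences between VitC groups were known beforehand. The levels there are therefore a description, with no p-value for the 7 genes. All 7 genes passed the filters on low values, which left 12573 and 16780 genes in the fits. For DNA and histone marks, the peaks that lie from 30 kb before to 30 kb after each gene were used.

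Wnt ligands bind Frizzled receptors together with the co-receptors Lrp5 and Lrp6, which stabilises beta-catenin and promotes bone formation. Sost (sclerostin, made mainly by osteocytes) and Dkk1 block Lrp5 and Lrp6. The Sfrp proteins and Wif1 bind Wnt ligands directly, and Sfrp4 is known from a human bone disorder caused by its loss. Cpz carries a Frizzled-like cysteine-rich domain in front of its enzymatic domain and has been linked to Wnt signalling in growing cartilage and bone. The mark 5hmC is made from methylated cytosine by Tet enzymes, which need VitC as a cofactor, whereas H3K27me3 and H3K9me3 are histone marks of repressed chromatin.

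RNA-seq of femoral bone compared 20 week old homozygous Gulo mutant mice (Gulotm1Mae), which cannot make VitC, given 3.3 g/L VitC in their water throughout (VitC+) or until week 15 (VitC+/-), with C57BL/6 wild type mice (WT). The Tet mice, 11 weeks old and on a C57BL/6 background, carried Prrx1-Cre, which is active in limb mesenchyme and its descendants. They had no floxed allele (Ctrl, so that the controls carry Cre too), Tet1fl/fl (Tet1 cKO), Tet2fl/fl (Tet2 cKO) or both (Tet1/2 cKO). Each of these 7 groups had 3 libraries. The methods of the study call the femur libraries biological triplicates, and the labels do not name the animals. RNA came from flushed and minced bone, and markers of blood cells were still abundant in it (a neutrophil sum of 6658 to 72439 RPKM over the 9 libraries of the VitC experiment). MC3T3-E1, a clonal pre-osteoblast line from mouse calvaria, was grown in 4 mM beta-glycerophosphate, and either received VitC at 50 µg/ml (VitC+) or did not (VitC-). The labels list 2 samples for each of these groups and marks. Its 5hmC was measured after 28 days, and its histone marks after 28 days by the labels but 7 days by the methods of the study.

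The steps between low RPKM values (reads divided by transcript length and library size) give 31 to 47.3 M reads (mega, the usual sequencing unit) for 8 of the VitC experiment's libraries, and 7.55 M reads for WT replicate 1, which stands apart. Whole reads recovered from the normalized counts of the Tet femurs sum to 28.6 to 49.8 M reads per library. Gulo was at 0.522 and 0.486 RPKM in WT replicates 1 and 2, but at 0 in the library labelled WT replicate 3 and at up to 0.18 in the mutant ones. Tet1 had 532 to 773 normalized counts in Tet1 cKO, 415 to 485 in Tet1/2 cKO and 374 to 435 in Ctrl. Tet2 had 1834 to 2245 in Tet2 cKO, 1851 to 2970 in Tet1/2 cKO and 2236 to 2512 in Ctrl. Such gene-level counts do not check a deleted exon. All 8 osteoblast markers had reads in every library, as the label of bone implies. Of 5 osteocyte markers, only Fgf23 was at 0 in any library. In bulk tissue, fewer cells of a type and less RNA per cell cannot be told apart.

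Cpz had the widest gap of the 7 genes between femurs with and without VitC. It lies on chromosome 5 on the reverse strand (mm10, chr5:35502218-35525626). Its level was 24.2, 14.7 and 31.1 RPKM in VitC+, 7.61, 3.09 and 5.31 in WT and 0.303, 0.133 and 0.658 in VitC+/-. The 3 groups did not overlap, and every VitC+/- library was below every other library. The difference between VitC+/- and VitC+ was -4.85 (SE 0.40) on the scale of log2(scaled RPKM + 0.5), or 28.9-fold, and with WT it was -2.73 (SE 0.40), or 6.64-fold. Because 0.5 is added to levels as low as 0.133 RPKM, these folds understate the ratio of the levels. With a pseudocount of 0.1 the difference from VitC+ was -5.87, and with 1 it was -4.19.

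Wif1, the Wnt inhibitory factor on chromosome 10 (chr10:121034004-121100642), was high in the same group. Its level was 38.0, 43.7 and 78.5 RPKM in VitC+, 26.9, 11.7 and 19 in WT and 19.7, 16.5 and 17.7 in VitC+/-. The VitC+ libraries were above all others, while the WT and VitC+/- libraries overlapped. The log2 difference between VitC+/- and VitC+ was -1.60 (SE 0.32) and that between VitC+/- and WT -0.07 (SE 0.32). Unlike Cpz, Wif1 thus had similar levels in WT and VitC+/- femurs.

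Sost (chr11:101962458-101967015, reverse strand) was likewise highest in VitC+ femurs. It had 27.4, 18.3 and 11.4 RPKM in VitC+, 7.18, 4.14 and 3.24 in WT and 4.86, 7.30 and 3.71 in VitC+/-. VitC+ replicate 1 was more than any other library and the VitC+ group did not overlap the other groups, which overlapped each other. The log2 difference from VitC+ was -1.84 (SE 0.44) in VitC+/- and -1.93 (SE 0.44) in WT.

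Dkk1 (chr19:30545885-30549496, reverse strand) also was highest in VitC+. It had 5.40, 9.09 and 8.11 RPKM in VitC+, 4.05, 0.96 and 2.25 in WT and 1.32, 0.945 and 2.28 in VitC+/-. Again only VitC+ stood clear of the other groups. The log2 difference between VitC+/- and VitC+ was -2.12 (SE 0.41), compared to -0.48 (SE 0.41) between VitC+/- and WT.

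The Sfrp genes did not share this pattern. Sfrp4 (chr13:19623175-19632823), the most abundant of them per length, had 23.4, 19.2 and 18.7 RPKM in VitC+, 15.6, 8.40 and 9.13 in WT and 39.2, 17.6 and 43.2 in VitC+/-. Its WT libraries were below all others, and VitC+/- replicate 2 was below the VitC+ group while the other VitC+/- libraries were above it. The log2 difference of VitC+/- was 0.47 (SE 0.39) from VitC+ and 1.46 (SE 0.39) from WT. Sfrp1 (chr8:23411502-23449632) had 1.92, 1.77 and 2.62 RPKM in VitC+, 1.5, 2.43 and 1.17 in WT and 2.06, 6.22 and 3.13 in VitC+/-. Sfrp2 (chr3:83766321-83774314) had 6.13, 1.27 and 4.47 RPKM in VitC+, 4.92, 1.24 and 1.21 in WT and 3.97, 2.29 and 8.60 in VitC+/-. For both genes all 3 groups overlapped, with log2 differences between VitC+/- and VitC+ of 0.52 (SE 0.34) and 0.20 (SE 0.68). Libraries of the same group differed several fold for Sfrp2.

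Past the threshold of the fit across all genes (limma adjusted p of 0.05), 4 of the 7 genes were lower in VitC+/- than in VitC+ (Sost, Dkk1, Wif1 and Cpz) and 0 were higher. Of all genes tested, 7.56% were lower and 5.93% higher in this comparison. The same 4 genes were those whose groups did not overlap, beside 19.2% of all genes in this direction. Against WT, Cpz was past the threshold as lower and Sfrp4 as higher, beside 15.9% and 15.3% of all genes. Both comparisons use the same VitC+/- libraries. Since the genes were chosen with these contrasts known, the counts are a description and nothing is read from them.

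The median log2 difference of all genes between WT and VitC+ was 0.043, and the share with a lower mean in WT was not counted. All 7 genes had lower mean log2 levels in WT than in VitC+ femurs, although both groups have VitC. Sost, Dkk1, Sfrp4, Wif1 and Cpz did so without overlap, beside 14.6% of all genes. The log2 differences of these 5 were between -2.12 for Cpz and -0.99 for Sfrp4. None of the 7 was past the threshold in limma, as were 0% of all genes tested, of which 2778 had an unadjusted p under 0.05. When WT replicate 1 (7.55 M reads) was left out, 507 lower and 96 higher genes passed in all. WT mice differ from both other groups in genotype.

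**Figure D1:**
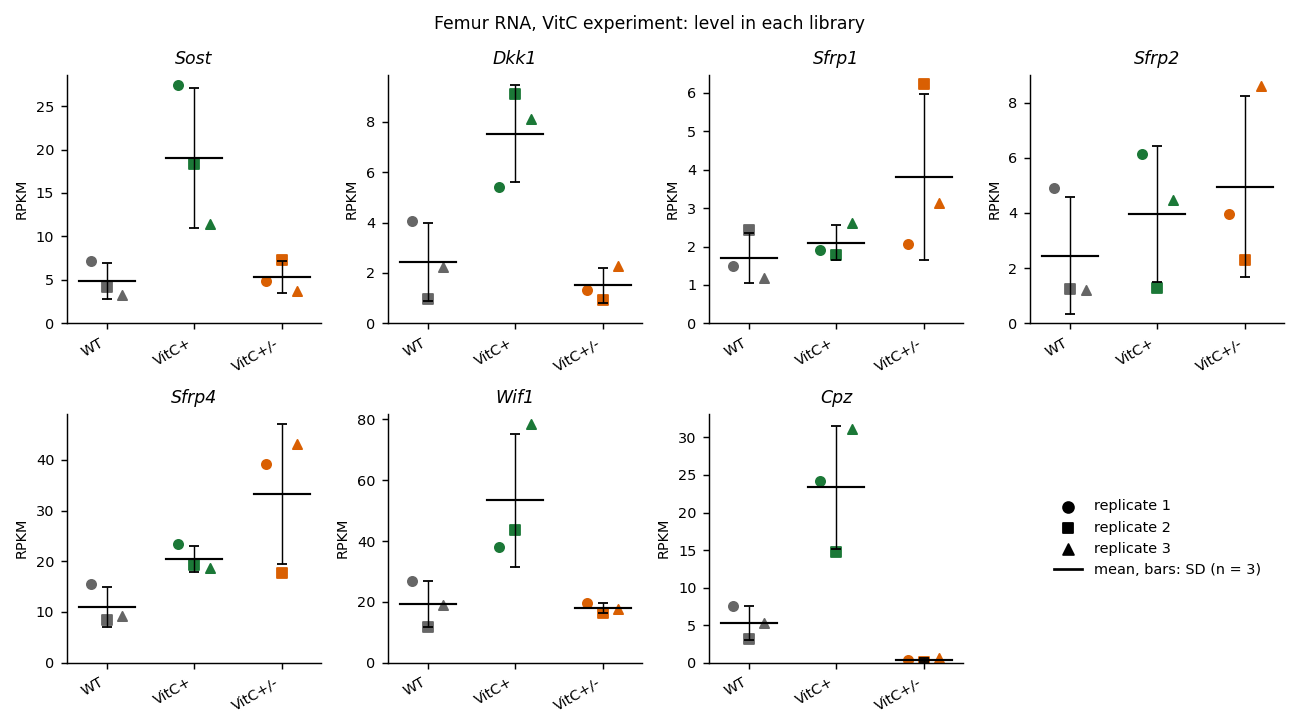
Level of each gene in RPKM (vertical axes, from 0) in the 9 femur libraries of the VitC experiment, 1 point per library with the symbol of its replicate number, and the mean with bars of 1 SD (n = 3). Cpz lies between 0.133 and 0.658 RPKM in VitC+/- and at 3.09 RPKM or more elsewhere, whereas the groups of Sfrp1 and Sfrp2 overlap.

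Summed markers of bone-forming cells were also highest in VitC+ femurs. Not every marker was, since Ibsp had a median of 640 RPKM in VitC+ and 979 in VitC+/-. The marker lists were chosen with earlier results known, so that the p-values of their genes are a description. The summed RPKM of 8 osteoblast markers was 5682 to 10715 in VitC+, 1126 to 3795 in WT and 689 to 4626 in VitC+/-. That of 5 osteocyte markers was 100 to 171, 31.9 to 69.9 and 48.3 to 71.3 in the same order. In VitC+/- compared to VitC+, the osteoblast genes Bglap (osteocalcin, log2 difference -7.53, SE 0.71, limma adjusted p = 0.000683) and Bglap2 (-6.60, SE 0.54, limma adjusted p = 0.00038) fell, and the other 6 did not pass the test. Of 4 osteocyte markers tested, Phex (-2.56, SE 0.29), Pdpn (-2.04, SE 0.50) and Dmp1 (-1.27, SE 0.27) fell, with limma adjusted p of 0.00186, 0.0303 and 0.0186. Against WT, Bglap (-5.51), Bglap2 (-3.92) and Phex (-0.92) were lower and Ibsp (1.84) was higher. The median log2 difference from VitC+ was -1.80 for the osteoblast and -1.65 for the osteocyte list, and 0.022 for all genes.

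Other cell types also differed between the groups. All 7 B lineage markers were lower in VitC+/- than in both other groups, with sums of 10.3 to 22.4 RPKM against 53.1 to 159 in VitC+. The neutrophil sum was 6658 to 22937 in VitC+/- and 21138 to 46143 in VitC+, with 2 of 6 markers past the threshold as lower. The osteoclast sum was 3061 to 6732 in VitC+/- and 1403 to 2798 in VitC+, with 3 of 6 past the threshold as higher, while the adipocyte sum was 318 to 2549 and 185 to 351. The chondrocyte sum was 33.4 to 49.3 in VitC+/- and 100 to 424 in VitC+, with Col2a1 lower. The erythroid sum was 238 to 330 in VitC+/-, 143 to 214 in VitC+ and 136 to 181 in WT, with Car1 past the threshold as higher. The sum of 6 muscle markers ranged from 5.6 to 964 across the 9 libraries without separating the groups. The part of these shifts in the levels of the 7 genes was not tested.

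Levels were also set against the summed markers, a ratio chosen after the values were seen and given as a description. The osteoblast sum is not 1 uniform measure: Bglap and Bglap2 differed more between VitC+/- and VitC+ than Cpz did, and the other 6 markers less. Per 1000 units of summed osteoblast marker RPKM, Cpz was 2.98, 2.59 and 2.91 in VitC+, 2.01, 2.75 and 2.62 in WT and 0.13, 0.192 and 0.142 in VitC+/-. WT and VitC+ overlapped here, and VitC+/- lay below them. Relative to Bglap alone, whose median was 1606 RPKM in VitC+ and 9.13 in VitC+/-, Cpz was not lower in VitC+/-. The same ratio of Wif1 was 4.67 to 7.7 in VitC+, 7.08 to 10.4 in WT and 3.82 to 23.9 in VitC+/-, so that its groups overlapped. For Sfrp4 it was 1.75 to 3.38 in VitC+, 4.11 to 7.46 in WT and 9.33 to 25.6 in VitC+/-, without overlap. The osteoblast sum was itself highest in VitC+, so that a gene with equal levels in all groups has its lowest ratio there. Per 1000 units of the osteocyte sum, Dkk1 was 52.6 to 53.9 in VitC+, 27.1 to 70.5 in WT and 19.6 to 32.1 in VitC+/-. Sost was 74.1 to 273, 102 to 117 and 52.1 to 151 in this order, with every pair of groups overlapping.

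**Figure D2:**
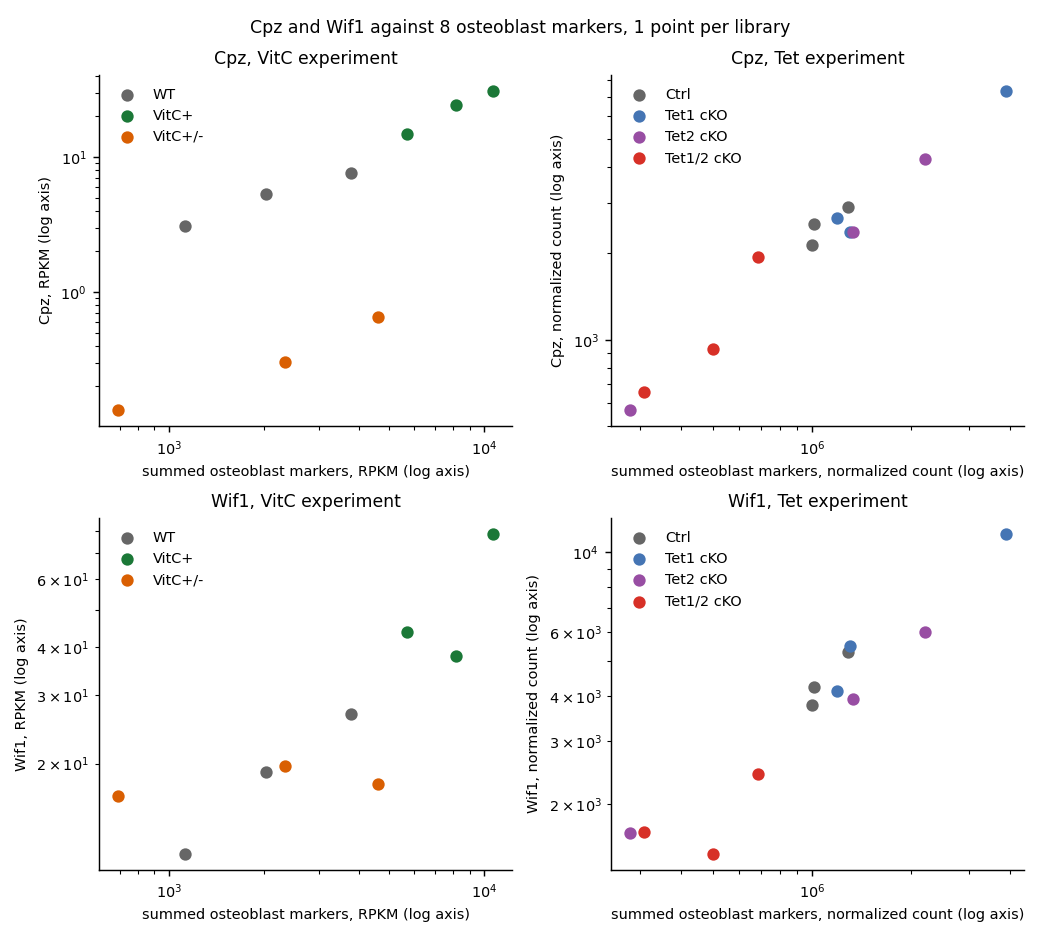
Level of Cpz (top) and Wif1 (bottom) against the summed level of 8 osteoblast markers, both on log axes, in RPKM for the 9 libraries of the VitC experiment (left) and in normalized counts for the 12 libraries of the Tet experiment (right). The 3 VitC+/- libraries have Cpz levels of at most 0.658 RPKM at marker sums of 689 to 4626 RPKM, a range in which WT libraries have 3.09 to 7.61 RPKM.

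Other genes of the pathway were described with lists that were also chosen with earlier results known. The genes named had the largest changes past the threshold, so that their adjusted p are a description. Of 13 further Wnt inhibitors, 6 were tested. Frzb, a relative of the Sfrp genes, was lower in VitC+/- than in VitC+ (log2 difference -2.02, SE 0.49, limma adjusted p = 0.0294), and Kremen1, a receptor of Dkk proteins, was higher (1.15, SE 0.28, limma adjusted p = 0.0303). Among 10 receptors and co-receptors tested, Fzd1 (1.73, SE 0.36, limma adjusted p = 0.0168) and Fzd4 (0.96, SE 0.24, limma adjusted p = 0.032) were higher and none was lower. Of 4 Wnt ligands and 6 targets of beta-catenin signalling tested, 0 passed in this comparison, with median log2 differences of 0.57 and -0.30 and none at an unadjusted limma p under 0.05. Of 4 carboxypeptidases related to Cpz, Cpe was lower (-2.36, SE 0.58, limma adjusted p = 0.0303).

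Against WT, 15.3% of all genes were higher in VitC+/- femurs and 15.9% lower, compared to 5.93% and 7.56% against VitC+. The lists below stand beside these shares, and no difference from them was tested. Of the inhibitors, Kremen1 (1.84), Apcdd1 (1.5) and Igfbp4 (0.92) were past the threshold as higher, and 0 of 6 were past it as lower. Also past it as higher were 6 of 10 receptors, with Fzd1 (2.6), Fzd8 (1.61) and Fzd4 (1.37) among them, and the ligands Wnt10b (2.14) and Wnt5a (1.59). Aebp1, a carboxypeptidase-like matrix protein, was higher by 3.14 (SE 0.70, limma adjusted p = 0.00985). Of the 6 targets of beta-catenin signalling 0 passed in limma and 1 (Nkd2) had an unadjusted p under 0.05, with a median log2 difference of 0.81, while the median of all genes was 0.009.

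In the Tet femurs, the levels are normalized counts, which are not divided by gene length and are compared only within a gene. None of the 7 genes was past the threshold of limma in Tet1 cKO, Tet2 cKO or Tet1/2 cKO compared to Ctrl, which all share the 3 Ctrl libraries. Nor was any by edgeR or DESeq2, and all adjusted p of the 3 tools were 0.641 or more. At an unadjusted p under 0.05 were Wif1 in limma, Sfrp1 and Wif1 in edgeR and in DESeq2, all in Tet1/2 cKO, and Sost in Tet2 cKO in DESeq2. Over all genes tested, 0.0119% passed in Tet1 cKO and 0.0119% in Tet2 cKO, and 0% in Tet1/2 cKO. In the latter comparison 847 genes had an unadjusted limma p under 0.05. Here edgeR called 0 genes with 778 under an unadjusted p of 0.05, and DESeq2 called 9 lower genes and 1 higher with 1179.

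In Tet1/2 cKO femurs, 6 of the 7 genes had lower mean log2 levels than in Ctrl, and for 4 of them the groups did not overlap, compared to 10% of all genes in this direction. The median log2 difference of all genes was -0.007, and the share of all genes with a lower mean was not counted. Wif1 had 1676, 2425 and 1461 normalized counts in Tet1/2 cKO and 3779, 4221 and 5295 in Ctrl, a log2 difference of -1.28 (SE 0.46, limma adjusted p = 0.723). Cpz had 656, 1950 and 928 in Tet1/2 cKO and 2142, 2538 and 2908 in Ctrl (-1.24, SE 0.68, limma adjusted p = 0.723). All Tet1/2 cKO libraries lay below all Ctrl libraries for both genes, with Tet1/2 cKO replicate 2 the highest of its group. Sfrp1 had 140, 208 and 201 in Tet1/2 cKO and 538, 284 and 540 in Ctrl (-1.27, SE 0.58, limma adjusted p = 0.723). Sfrp4 had 820, 870 and 1085 in Tet1/2 cKO and 1246, 1216 and 2039 in Ctrl (-0.66, SE 0.45, limma adjusted p = 0.723). These are the other genes without overlap, with 1085 and 1216 as the nearest values for Sfrp4.

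The remaining 3 genes overlapped between Tet1/2 cKO and Ctrl. Dkk1 had 188, 281 and 140 normalized counts in Tet1/2 cKO and 266, 436 and 417 in Ctrl (-0.90, SE 0.88, limma adjusted p = 0.761). Sfrp2 had 18.3, 49.5 and 173 in Tet1/2 cKO and 63.4, 271 and 261 in Ctrl (-1.59, SE 1.04, limma adjusted p = 0.723). Sost went the other way, with 1115, 2033 and 567 in Tet1/2 cKO and 720, 200 and 445 in Ctrl (1.44, SE 1.41, limma adjusted p = 0.762). The standard errors of these genes, 0.88 to 1.41 on the log2 scale, were larger than those of Wif1 and Sfrp4, so that only larger changes could have been detected.

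In Tet1 cKO, the log2 differences from Ctrl ranged from -0.21 for Sfrp4 to 1.5 for Sost, and in Tet2 cKO from -0.54 for Sfrp1 to 1.11 for Sost, with groups that overlapped for all 7 genes. The Tet2 cKO libraries were far apart. Sost had 7373, 56.8 and 1526 normalized counts, and Tet2 cKO replicate 2 was the lowest of its group for every gene but Sfrp2. Its osteoblast marker sum was 280091, compared to 1331079 and 2213411 in the other 2 libraries. Without this library, the log2 difference of Cpz between Tet2 cKO and Ctrl changed from -0.49 to 0.34, and that of Sost from 1.11 to 3.06. In Tet1 cKO, replicate 3 had the highest levels of its group for Sost, Dkk1, Wif1 and Cpz, and the highest osteoblast marker sum of all 12 libraries (3886587).

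**Figure D3:**
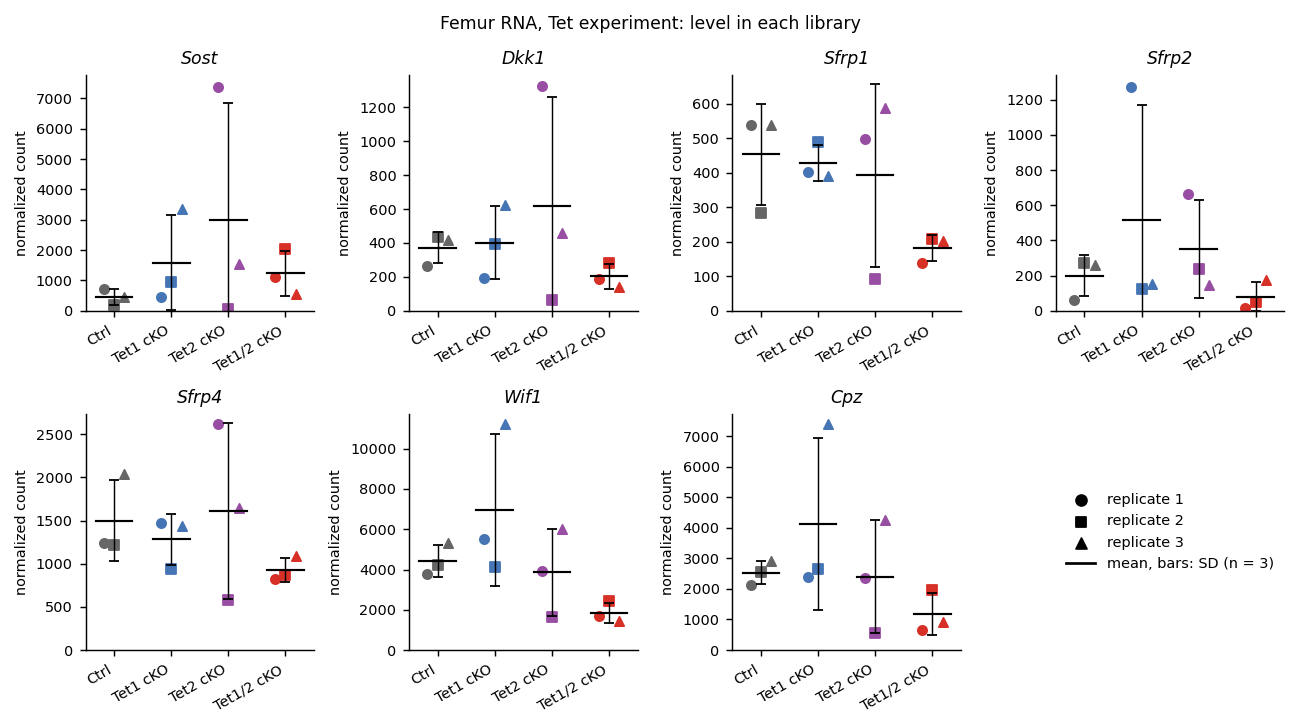
Normalized count of each gene (vertical axes, from 0) in the 12 femur libraries of the Tet experiment, 1 point per library with the symbol of its replicate number, and the mean with bars of 1 SD (n = 3) that are cut off at 0. Wif1, Cpz, Sfrp1 and Sfrp4 lie below all Ctrl libraries in Tet1/2 cKO, and Sost in Tet2 cKO spans 56.8 to 7373.

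Sums of bone cell markers also lay lower in Tet1/2 cKO, with an osteoblast sum of 309787 to 687025 normalized counts against 998730 to 1291081 in Ctrl and an osteocyte sum of 5976 to 11483 against 11826 to 17307. None of the 8 osteoblast markers passed the limma threshold (3 had an unadjusted p under 0.05), and Bglap had a log2 difference of -1.21 (SE 0.62, limma adjusted p = 0.723). Neutrophil markers summed to 1058134 to 2469863 in Tet1/2 cKO and 749116 to 1124791 in Ctrl, and adipocyte markers to 3479 to 8426 and 9952 to 12959. Muscle markers summed to 4392, 2497 and 341624 in Tet1/2 cKO and 90267, 317160 and 400730 in Ctrl. The part of these cells in the levels of the 7 genes was not tested. Per 1000 units of the osteoblast sum, Cpz was 2.12, 2.84 and 1.85 in Tet1/2 cKO and 2.14, 2.49 and 2.25 in Ctrl. Over all 12 libraries this ratio lay between 1.78 and 2.84. Wif1 had ratios of 2.91 to 5.41 in Tet1/2 cKO and 3.78 to 4.14 in Ctrl. Sost, whose levels overlapped, had ratios of 3.6, 2.96 and 1.13 in Tet1/2 cKO and 0.721, 0.197 and 0.345 in Ctrl, without overlap. Per 1000 units of the osteocyte sum it had 187, 177 and 67.6 in Tet1/2 cKO and 60.9, 11.6 and 31.7 in Ctrl, again without overlap. Both sums were lower in Tet1/2 cKO, which raises the ratio of any gene with an unchanged level. The share of all genes that separate in these ratios was not counted. Dkk1, Sfrp1, Sfrp2 and Sfrp4 overlapped in their ratios to the osteoblast sum, as did Cpz and Wif1. Of the pathway lists, 0 genes passed in limma in any Tet comparison. In Tet1/2 cKO, unadjusted limma p under 0.05 were found for Notum, Lrp4, Wnt7b, Axin2 and Tnfrsf11b, beside 5.05% of all genes tested. Median log2 differences between Tet1/2 cKO and Ctrl were -0.74 for 16 receptors, -0.86 for 12 ligands and -0.98 for 11 beta-catenin targets. They were -0.52 for 11 inhibitors, -0.71 for 6 carboxypeptidases and -0.007 for all genes. Medians of the marker lists ranged from -3.87 (skeletal muscle) to 0.77 (neutrophil), with -1.23 for osteoblast markers. No difference between the lists was tested.

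Among 11177 genes tested in both experiments, those most like each member were ranked by the lower of its correlations over the 9 and over the 12 libraries. These correlations rest on libraries that share group differences and cell composition, and are a description. Cpz was most like Bglap (Pearson r of 0.97 over 9 and 0.97 over 12 libraries), followed by Lipc and Bglap2. Dkk1 was most like Phex (0.92 and 0.96), the endopeptidase that marks osteocytes. Wif1 was most like Kazald1 (0.95 and 0.96). For Sfrp2 the nearest gene was Mxra7 (0.90 and 0.94), for Sfrp4 Tctn3 (0.92 and 0.90) and for Sfrp1 Abca1 (0.83 and 0.86). Of the 21 pairs among the 7 genes, Wif1 and Cpz had r of 0.82 over 9 and 0.95 over 12 libraries. Sfrp1 and Cpz had -0.47 in the VitC and 0.82 in the Tet experiment.

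For 5hmC, DNA fragments carrying the mark were immunoprecipitated and sequenced (hMeDIP-seq), and the authors called peaks on the pooled samples of each group, which gives 1 list per group. Peak values therefore have no replicate error, and no test was made. Peaks were assigned to a gene by their midpoint, and fold is the enrichment over the local background. No 5hmC peak of any list lay over the transcription start site of the 7 genes. Distances are given from the start to the peak's midpoint, with negative values ahead of the gene. The nearest peak of the femur VitC+ list lay at -1.37 kb for Dkk1, -0.938 kb for Sfrp4 and -1.32 kb for Wif1, and within an intron at 1.25 kb for Sfrp1 and 12467 bp for Cpz. That of Sost lay over the last exon, at 4.48 kb.

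The sequences of 5 genes show what the 5hmC signal next to them sat on. Each is 150 bases around the summit of the peak or, for Dkk1, also of the highest peak of the gene, read from GRCm38.p6 on the strand of the gene, and capitals mark CG, the usual site of the modification. They lie at chr19:30550854-30551003 and chr19:30552650-30552799 (Dkk1), chr8:23412658-23412807 (Sfrp1), chr13:19622247-19622396 (Sfrp4), chr10:121032662-121032811 (Wif1) and chr5:35513261-35513410 (Cpz).
Dkk1, nearest peak: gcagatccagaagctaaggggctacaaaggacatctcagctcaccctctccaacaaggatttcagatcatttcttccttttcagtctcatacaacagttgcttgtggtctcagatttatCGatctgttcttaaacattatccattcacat
Dkk1, highest peak, at -3.32 kb: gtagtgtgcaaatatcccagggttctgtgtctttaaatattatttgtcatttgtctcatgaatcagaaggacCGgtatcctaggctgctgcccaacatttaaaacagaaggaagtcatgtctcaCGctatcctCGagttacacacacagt
Sfrp1, nearest peak: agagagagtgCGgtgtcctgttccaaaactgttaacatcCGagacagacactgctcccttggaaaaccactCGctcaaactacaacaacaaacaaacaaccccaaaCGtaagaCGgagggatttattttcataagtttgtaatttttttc
Sfrp4, nearest peak: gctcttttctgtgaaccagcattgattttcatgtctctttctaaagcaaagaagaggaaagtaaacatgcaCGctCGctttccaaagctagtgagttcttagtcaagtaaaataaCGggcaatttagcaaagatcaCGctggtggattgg
Wif1, nearest peak: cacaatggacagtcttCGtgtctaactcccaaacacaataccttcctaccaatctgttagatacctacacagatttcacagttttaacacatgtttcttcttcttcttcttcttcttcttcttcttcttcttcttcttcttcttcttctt
Cpz, nearest peak: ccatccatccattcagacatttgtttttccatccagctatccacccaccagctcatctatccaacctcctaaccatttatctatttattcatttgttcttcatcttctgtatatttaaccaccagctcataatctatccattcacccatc
The Sfrp1 window held 5 CG, that of Sfrp4 held 4, and the Dkk1 windows held 1 and 3. The Cpz window held none and opens with ccat repeats, while that of Wif1 ends in a run of ctt repeats with 1 CG outside it.

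The fold of each peak shown is given here for VitC+ and VitC+/- femurs. The peak before Dkk1 had a fold of 8.88 in VitC+ and 6.17 in VitC+/-, and that at -3.32 kb had 13.7 and 9.9. The intronic peak of Sfrp1 had 7.53 and 6.26, and the peak before Wif1 12.6 and 10.5. The peaks of Sfrp4 (5.33 and 6.3) and Cpz (13.8 and 16.2) were higher in VitC+/-.

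All 7 genes had less 5hmC peak coverage in VitC+/- than in VitC+ femurs, and none of them by as much as 2-fold. Wif1 had 55 peaks over 35.0 kb in VitC+ and 38 over 19.7 kb in VitC+/-, a log2 ratio of -0.80 after 1 kb was added to each length. Sost had 12 peaks over 4.21 kb and 8 over 2.22 kb (-0.69), and Sfrp1 had 15 over 5.46 kb and 11 over 3.75 kb (-0.44). Dkk1 had 24 peaks over 18.3 kb and 23 over 13.7 kb (-0.39). Cpz, whose RNA differed most, had few peaks, with 5 over 2.6 kb and 4 over 1.9 kb (-0.31). Sfrp4 (-0.16) and Sfrp2 (-0.06) differed least. The median log2 ratio of all genes was -0.114, so that less coverage was also the more common direction among all genes. Of all genes, 0.438% were past 2-fold lower and 3.33% past 2-fold higher.

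The share of the window under VitC+ peaks differed between the genes. It was 28.8% for Dkk1, 27.7% for Wif1 and 21.9% for Sfrp4, above 99%, 98.7% and 96.6% of all genes. It was 3.12% for Cpz, above 33.2% of all genes, and the median of all genes was 4.91%. For Sost it was 6.52%, above 61.6% of all genes. In VitC+/- femurs, Dkk1, Wif1, Sfrp4 and Sost were above 98.5%, 94.3%, 97.6% and 33.3% of all genes. In the Ctrl femurs of the Tet experiment they were above 77.8%, 94.5%, 61% and 92.1%. A relation of these shares to the RNA levels was not tested.

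Compared to Ctrl, Tet1/2 cKO femurs had less 5hmC coverage around all 7 genes. The coverage was past 2-fold lower for 6 of them (Dkk1, Sfrp1, Sfrp2, Sfrp4, Wif1 and Cpz), as it was for 59.7% of all genes. Sfrp1 had 19 peaks over 10.7 kb in Ctrl and 3 over 1.74 kb in Tet1/2 cKO, a log2 ratio of -2.09 and the lowest of the set. Wif1 had 37 peaks over 55.2 kb and 31 over 23.6 kb (-1.20), Cpz had 11 over 8.11 kb and 5 over 2.83 kb (-1.25), and Dkk1 12 over 16.4 kb and 8 over 5.86 kb (-1.34). Sfrp2 fell from 11.0 to 3.23 kb (-1.51) and Sfrp4 from 12 to 5.47 kb (-1.01). Sost, with 16 peaks over 25.6 kb and 17 over 16.0 kb, had a log2 ratio of -0.65. The median of all genes was -1.117. Of the peaks shown above, those at -1.37 kb of Dkk1 (fold of 2.17 in Ctrl) and in the Sfrp1 intron (4.01) were not called in Tet1/2 cKO. Those before Sfrp4 (5.32 and 3.4) and in Cpz (5.4 and 4.48) were weaker, and that before Wif1 had 2.97 and 4.16. The median fold of the whole list was 3.45 in Ctrl and 4.02 in Tet1/2 cKO.

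The widest Ctrl peak around Sost, of 7988 bp, lies over the neighbouring gene Dusp3 (chr11:101971202-101979189, fold of 8.81), where 4 shorter peaks were called in Tet1/2 cKO and none in VitC+ or VitC+/- femurs. The window around each gene thus holds peaks of neighbours, among them Dusp3 at Sost, Prkg1 at Dkk1 and Epdr1 at Sfrp4. The lists of the 2 femur experiments were made from mice of different age and genotype and are not compared further.

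**Figure D4:**
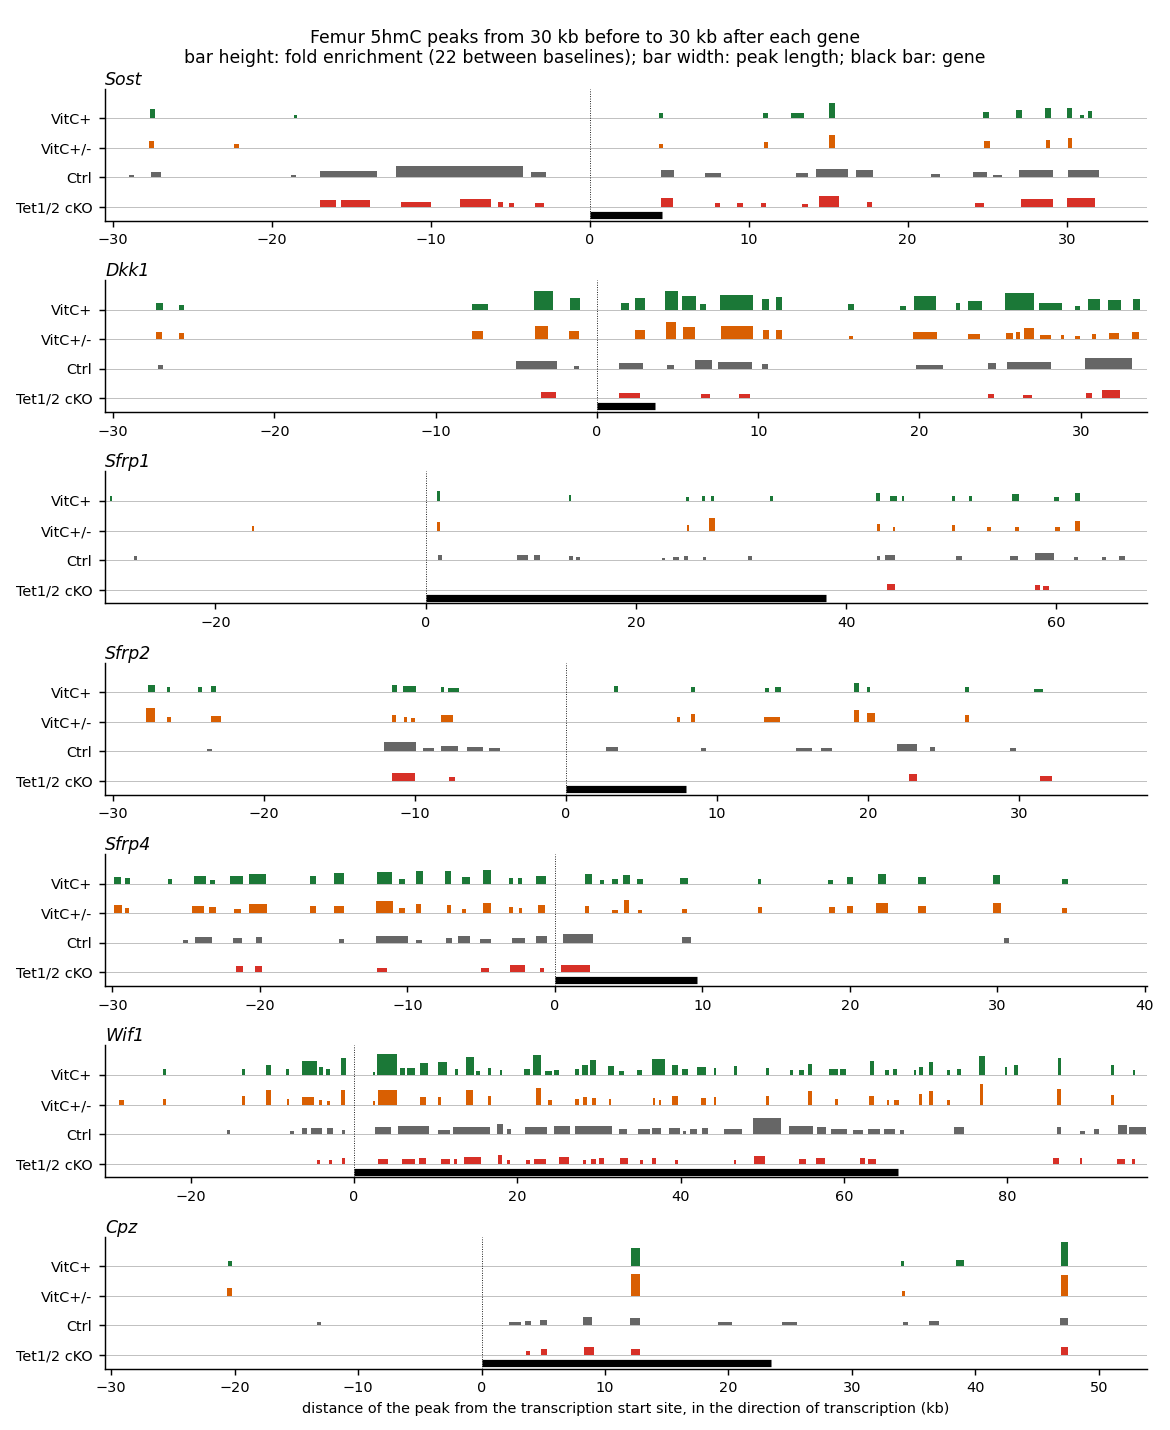
Peaks of 5hmC around each gene in 4 femur lists, by distance from the transcription start site in kb in the direction of transcription (horizontal axis). Bar width is peak length, bar height is fold enrichment, and the black bar is the gene. Wif1 and Dkk1 are covered by peaks through and after the gene in VitC+ femurs, Cpz has 5 peaks in VitC+, and Sfrp1 keeps 3 of 19 peaks in Tet1/2 cKO.

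In MC3T3-E1 cells, Sfrp2 had the largest difference in 5hmC coverage of the set. It had 28 peaks over 41.4 kb with VitC and 13 over 10.3 kb without it, a log2 ratio of -1.90 for VitC- over VitC+. The VitC+ peaks covered 60.9% of its window, above 99.8% of all genes, and included a peak of 4496 bp ahead of the gene (chr3:83759557-83764052, fold of 14.0). Its highest peak without VitC, at -7.68 kb, went the other way in fold, with 28.2 without and 15.4 with VitC. It was the only one of the 7 genes past 2-fold lower in VitC- cells, beside 34.5% of all genes, and 0 were past 2-fold higher, beside 23.4%. Cpz had 5 peaks over 3.68 kb with VitC and 13 over 6.90 kb without (0.75), and Sfrp1 5 over 2.95 kb and 11 over 5.48 kb (0.71). Dkk1 (-0.44), Sfrp4 (-0.43), Wif1 (0.21) and Sost (0.01) differed less, and the median of all genes was -0.553. The Dkk1 peak at -3.32 kb had a fold of 14.8 with VitC and 4.59 without. The Cpz intron peak went the other way, with 5.51 (1 CG at its summit in that list) and 24.5 (no CG).

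Coverage by H3K27me3 was widest at Cpz and Sost. The peaks are broad, there is 1 list per group, and whether the authors pooled samples for it is not stated. Around Cpz it was 44 kb in 8 peaks with VitC and 74.3 kb in 2 peaks without, and around Sost 55.6 kb in 11 peaks and 54.8 kb in 3. Without VitC, 1 peak of 71704 bp (chr5:35457507-35529210, fold of 3.93) spanned all of Cpz, and 1 of 51816 bp (chr11:101922799-101974614, fold of 3.38) all of Sost. In VitC+ cells the same stretches were held by several peaks with gaps between them. The log2 ratios of 0.74 and -0.02 for coverage are therefore not matched by the number of peaks, which was lower in VitC- for both genes. Peaks lay over the start sites of Sost and Cpz in both lists and of Sfrp4 in VitC- only, beside 7.51% of 19728 genes in VitC+ and 13.2% in VitC-. Sfrp2 had no H3K27me3 peak in either list, while 13820 of the 19728 genes had a peak in at least 1 of them.

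Because H3K27me3 peaks lay over their starts, the promoters of Sost and Cpz are shown. They are the 250 bases before the start from RefSeq (GRCm38.p6), at chr11:101967016-101967265 and chr5:35525627-35525876, on the strand of the gene. Capitals mark any match to CTTTGA (the core of TCF/LEF sites, which bind beta-catenin complexes), ACCACA (the core of Runx sites) or TATAAA on either strand, where TCAAAG is CTTTGA on the other strand.
Sost promoter: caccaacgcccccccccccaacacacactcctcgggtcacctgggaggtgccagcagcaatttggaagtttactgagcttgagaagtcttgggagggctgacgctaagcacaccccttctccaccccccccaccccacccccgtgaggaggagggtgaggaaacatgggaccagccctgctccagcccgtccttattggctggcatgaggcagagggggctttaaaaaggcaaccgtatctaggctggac
Cpz promoter: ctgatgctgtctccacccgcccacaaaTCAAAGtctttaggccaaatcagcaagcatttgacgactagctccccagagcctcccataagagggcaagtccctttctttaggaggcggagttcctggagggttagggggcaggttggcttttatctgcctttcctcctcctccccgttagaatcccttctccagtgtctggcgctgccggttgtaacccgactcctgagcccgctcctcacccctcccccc
Sost had no match and 6 CG, and Cpz had 1 match to CTTTGA, 223 bases before the start, and 8 CG. RefSeq promoters were at hand for 5 of the 7 genes, and not for Sfrp1 and Sfrp4. Of the others, Dkk1 had CTTTGA 174 and 117 bases, ACCACA 207 bases and TATAAA 54 bases before its start, Wif1 had TATAAA 232 bases before, and Sfrp2 had none. Of all 32851 promoters of this length, 13.8% hold CTTTGA, 14.0% ACCACA and 12.4% TATAAA. CG numbered 6 in Dkk1, 16 in Sfrp2 and 21 in Wif1, with a median of 6 over all promoters. A match describes these letters only.

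Sfrp1, Sfrp4, Dkk1 and Wif1 had less H3K27me3 coverage with VitC than without. Sfrp1 had 6 peaks over 3.38 kb with VitC and 14 over 31.3 kb without (log2 ratio of 2.88). Sfrp4 had 3 over 1.89 kb and 7 over 9.18 kb (1.82), Dkk1 11 over 6.27 kb and 19 over 13.9 kb (1.03) and Wif1 17 over 18.9 kb and 22 over 38.8 kb (1.00). These 4 genes were past 2-fold higher in VitC-, beside 31.5% of all genes, for which the median log2 ratio was 0.665. The fold of the highest peak was lower in VitC- for Dkk1, Sfrp1, Sfrp4 and Wif1 (2.49 to 2.85, against 2.88 to 3.34 in VitC+). So was the median fold of the whole list, with 2.44 in VitC- and 2.77 in VitC+. For Cpz (3.93 in VitC- and 3.35 in VitC+) and Sost (3.38 and 3.33) the highest peak went the other way.

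H3K9me3 peaks were few, but at some of the 7 genes they covered more of the window than at most genes. Without VitC the share was 9.55% at Cpz, 8.37% at Wif1 and 6.78% at Sost, above 90.9%, 89.1% and 86% of all genes. The median of all genes was 0.831%. Cpz had 3 peaks over 1.77 kb with VitC and 8 over 7.97 kb without (log2 ratio of 1.70), and Sfrp2 had none with VitC and 2 over 3.19 kb without (2.07). Dkk1 had 1 peak of 0.513 kb and 1 of 2.50 kb (1.21), and Sost 3 over 1.69 kb and 4 over 4.38 kb (1.00). These 4 genes were past 2-fold higher in VitC-, beside 26.4% of all genes. Wif1 had 5 over 7.32 kb and 6 over 10.6 kb, and Sfrp1 and Sfrp4 had no peak in either list. The H3K9me3 ratios of Cpz, Sost and Dkk1 changed sign under a stricter peak threshold or a narrower window. No H3K9me3 peak lay over a start site of the set. The lists of both histone marks reach down to a -log10 q of 1.01 and so hold weak peaks.

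**Figure D5:**
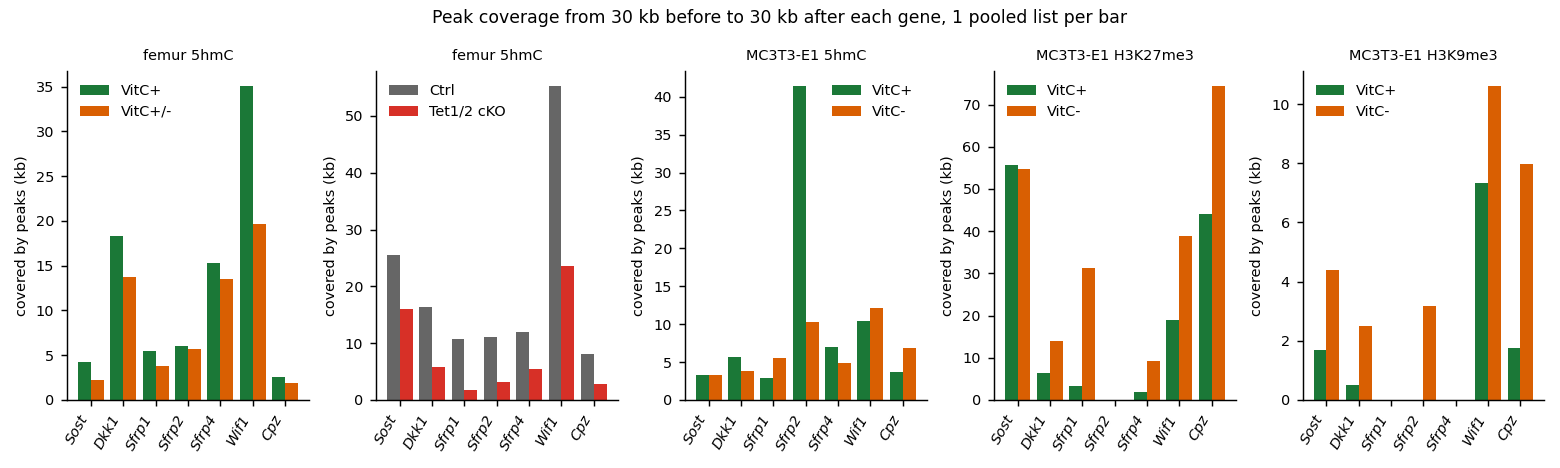
Length covered by peaks in kb (vertical axes, from 0) from 30 kb before to 30 kb after each gene, with 1 list per group and mark and no replicate error. In MC3T3-E1 cells the bars of Sfrp2 stand out for 5hmC with VitC (41.4 kb) and those of Cpz for H3K27me3 without it (74.3 kb). Femur 5hmC is lower in VitC+/- and in Tet1/2 cKO for all 7 genes, as it is in the median over all genes.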

How the data were processed

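RNA-seq of 21 femur libraries and 10 peak lists were used. The 7 genes, the gene lists and the marker lists were chosen with earlier results of these data known. For the VitC experiment, reads had been aligned to mm10 with STAR, and the authors deposited RPKM per gene and library. The methods name cufflinks for FPKM, and no source used here names a tool for the RPKM. For the Tet femurs, the deposited signal is a normalized count, gene counts that the authors divided by DESeq2 size factors. Fold enrichment (a ratio over the local background) and -log10 q of peaks are as the authors' MACS2 calls gave them, after mapping with BWA. For the MC3T3-E1 5hmC lists, the deposited pileup (coverage signal) and -log10 p were not used. Versions in the submitters' processing notes are STAR 2.6.0b-1, BWA 0.7.15.1 and MACS2 2.1.1.20160309.6 (the methods of the study name another MACS2 version). Deposited coordinates and the reference (GRCm38.p6) are of the same assembly.

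RPKM were scaled by median-of-ratios, and log2(RPKM + 0.5) of genes with at least 1 RPKM in 3 libraries was fitted with limma 3.58.1 (eBayes with trend) over all 9 libraries. Normalized counts of at least 10 in 3 libraries were fitted as log2(count + 1) over all 12 libraries. Benjamini-Hochberg adjustment covered all genes tested, and the threshold was 0.05. As alternatives, edgeR 4.0.16 and DESeq2 1.42.0 were run on reads recovered from the normalized counts (100% of the values came out whole). Low RPKM values came out as whole reads in 93.3 to 94.3% of cases, within 0.1 of a read. Depth limits low genes, and the precision of peak values is unknown, since there is 1 list per group. The fits were also run on simulated data with the same spread for every gene. These libraries differ from that, and nothing is read from the simulation here.

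Coverage is the summed length of peaks whose midpoint lies within 30000 bp of the gene body, with 1000 bp added before a log2 ratio is taken, and 2-fold was the threshold. Named beside the 7 genes are, per list and comparison, up to 3 genes past the threshold with the largest change, the 3 genes most like each of them, Gulo, Tet1 and Tet2. Other genes (Col2a1, Fgf23, Nkd2, Notum, Lrp4, Wnt7b, Axin2 and Tnfrsf11b) were named after their values were seen. Input libraries have no file and were not used here. Protein sequences were not used here, and some genes most like a member and 1 peak are not reported here. All columns of the Tet table could be assigned to a sample. Computations used R 4.3.3 and Python 3.11.15.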

Additional observations from a re-analysis of the deposited data

How the results depend on the processing

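As a description, since the genes were selected on these values, counts of the 7 genes past the threshold in VitC+/- against VitC+ were 4, and between 2 and 4 when 1 library was left out. Against WT the count was 2, and between 1 and 2. In WT against VitC+ it was 0, and between 0 and 4, with 4 without WT replicate 1. The replicate number as a block gave 4 in this comparison (Sost, Dkk1, Wif1 and Cpz), and 589 lower and 184 higher genes in all. It changed no other count of the 7 genes. The labels do not say that equal numbers pair the samples, and the correlations of same-numbered libraries' deviations lay between -0.192 and 0.463 in the VitC and between -0.567 and 0.529 in the Tet experiment. In the Tet comparisons the count was 0 under all alternatives. Pseudocounts of 0.1 and 1 moved Cpz against WT to -3.65 and -2.17. By peaks, H3K27me3 lower in VitC- counted 0 genes, but 1 within 30000 bp of the start site (Cpz), 1 within 10000 bp of the gene (Sost) and 2 by the number of peaks (Sost and Cpz). The H3K9me3 ratios reversed for Sost (-0.42 with a -log10 q of at least 2, -0.31 within 10000 bp), Dkk1 (-0.60 within 10000 bp) and Cpz (-0.67 with a -log10 q of at least 2), where fewer peaks remained. In femur 5hmC of Tet1/2 cKO, 4 instead of 6 genes were past 2-fold by the number of peaks or within 30000 bp of the start. Of single values, 332 in the VitC experiment and 202 of peaks kept their side of the threshold or moved by less than the spread, and 4 in the VitC experiment and 4 of peaks moved. All 399 values of the Tet experiment kept their side, because no gene passed in any setting, and a change of sign was not counted there. With 1 library left out, Dkk1 in Tet2 cKO against Ctrl ranged from -1.12 to 1.10. The cause of each shift was not tested.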

Other observations

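Some 5hmC summits around these genes hold no CG dinucleotide, as do some among all peaks of their chromosomes. In a window of 150 bases around the summit, 1 of 87 peaks (1.15%) near the 7 genes lacked CG in MC3T3-E1 cells with VitC, and 26 of 84 (31%) did without VitC. In VitC+ femurs it was 15 of 158 (9.49%), in VitC+/- 23 of 126 (18.3%), in Ctrl 11 of 123 (8.94%) and in Tet1/2 cKO 9 of 75 (12%). Over all peaks of the 7 chromosomes these shares were 2.69% and 36.3% in the MC3T3-E1 lists with and without VitC, 20.2% and 31.6% in VitC+ and VitC+/- femurs, and 6.63% and 8.87% in Ctrl and Tet1/2 cKO. The Cpz intron peak shown in the report lacks CG at its summit in VitC+ femurs and in MC3T3-E1 cells without VitC (fold of 24.5), but not in these cells with VitC. Near Wif1, 10 of 22 peaks lacked CG in these cells, compared to 0 of 19 with VitC. These features were looked at after the peak values were known, and each list pools its samples, so that no test was made.

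Peaks near the 7 genes lay over a tandem repeat of at least 20 bases (unit of up to 6 bases) in 3.45% of cases in MC3T3-E1 cells with VitC and 14.3% without, compared to 2.47% and 11.3% of all peaks on these chromosomes. In VitC+ femurs, 3 of the 5 Cpz peaks did so.

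Tet2, the gene of an enzyme that makes 5hmC, had 9.05, 9.28 and 6.91 RPKM in VitC+/- femurs, 2.40, 4.94 and 4.06 in VitC+ and 4.08, 6.60 and 4.83 in WT. The VitC+/- libraries were above all others. Of all genes tested, 21.4% were higher in VitC+/- than in VitC+ without overlap, and 21.4% were so against WT. Tet1 had 0.181, 0.241 and 0.284 RPKM in VitC+/-, 0.271, 0.649 and 0.669 in VitC+ and 0.643, 0.824 and 0.452 in WT, and VitC+/- overlapped VitC+. These Tet1 levels did not pass the filter on low values.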
